A study of Mus musculus with 4 samples.

Results

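Alveolar type I (AT1) cells of the mouse lung at postnatal day 60 (P60) were compared with AT1 cells at postnatal day 15 (P15), with 1 single-cell RNA library at each age. A cell was kept when its summed level of 8 AT1 genes (Ager, Hopx, Pdpn, Aqp5, Rtkn2, Clic5, Akap5 and Emp2) reached at least 0.5 of its own library's median, which kept 3890 of the 4277 cells of both libraries, out of 9519 cells in the whole series. The rule kept 2670 of 2940 cells at P15 (90.8%) and 1220 of 1337 at P60 (91.2%). Within 10% of the limit lay 12 kept and 9 left-out cells at P15, and 3 kept and 3 left-out cells at P60. The unique molecular identifiers (UMIs), which count single transcripts, were recovered from the deposited values and summed over the kept cells. Levels are given as CPM, a gene's count scaled to a common total of 1000000 UMIs over all genes a file lists.

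The series holds 4 libraries, AT1 cells at P3, P15 and P60 and alveolar type II (AT2) cells at P60, all made with the 10x 3' chemistry. The P15 and the P60 mice shared their genotype and treatment: each carried Sftpc-CreER, a tamoxifen-activated recombinase driven by the surfactant protein C gene of AT2 cells, together with Rosa26-Zsgreen and Hopx-RFP, was of a mixed FVB/C57BL6 background, and had received 1-2 doses of tamoxifen. Both libraries were sorted as cells with red fluorescence and surface Pdpn but without green fluorescence or CD45, so cells with the green Sftpc lineage label were gated out. How many animals went into a library, and their sex, are not given in the sources used here. With 1 library a side, age and library cannot be told apart and no test of the age difference exists. The 95% intervals beside the folds are exact Poisson intervals on the ratio of the counts and cover counting error only.

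AT1 cells are the thin, flat cells across which the lung exchanges gas, and they share a fused basement membrane with the capillary endothelium beneath them. In the mouse, alveoli are still being formed and thinned at the younger of the 2 ages, while the older age is that of the young adult. AT1 cells also secrete matrix and signals for the neighbouring vessels, among them VEGF-A, and they bear the stretch of each breath.

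After the rule, P15 held 13960421 UMIs with a median of 4970 per cell (1434 to 21046), and P60 held 6851433 with a median of 5493 (1159 to 23064). Malat1, a nuclear long noncoding RNA, made up 6.65% of all UMIs at P15 and 15.8% at P60, with medians per cell of 6.0 and 15.8%. Ribosomal protein genes made up 7.31% and 4.82%, and the mitochondrial genome 3.06% and 3.03%. All 16 AT1 markers, the 8 of the rule included, were above 0 in both libraries, with a summed level of 63738 and 53312 CPM. These sums mainly describe the choice of cells, since Ager, a gene of the rule, alone held 35024 and 22202 CPM. AT2 markers summed to 603 CPM at P15 and 512 CPM at P60, against 24573 and 45694 CPM in the cells the rule left out. Single AT2 markers differed in both directions, with Sftpd at 89.4 and 9.05 CPM and Sftpa1 at 38.6 and 51.5 CPM. An Sftpc UMI was found in 27.8% of kept cells at P15 and 63.7% at P60. At least 3 AT2 markers were found in 275 of the 2670 kept cells at P15 and 407 of the 1220 at P60. Markers of fibroblasts summed to 53.2 and 21.6 CPM, and those of pericytes or smooth muscle to 24.9 and 11.8 CPM. Endothelial markers summed to 300 and 361 CPM, of which Esam alone held 280 and 306 CPM. Immune markers summed to 204 and 255 CPM, of which Csf1r alone held 184 and 198 CPM. At least 3 endothelial markers were found in 5 kept cells at P15 and 30 at P60, and at least 3 immune markers in 6 and 25. For fibroblasts these counts were 10 and 0, and for pericytes or smooth muscle 5 and 0. Of the neutrophil genes, S100a8 stood at 1.36 CPM at P15 and 48.3 CPM at P60, and S100a9 at 0.931 and 34.4 CPM. The secretory club cell gene Scgb1a1 stood at 276 CPM at P15 and 1069 CPM at P60 in the kept cells, against 48284 and 1273 CPM in the cells left out. The Y-linked genes Ddx3y (44.8 and 50.2 CPM) and Eif2s3y (57.7 and 51.8 CPM) were present at both ages and Xist was near 0 (0.788 and 4.82 CPM). The files shared 6 cell barcodes.

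Of 11320 genes listed at both ages, 3425 reached 50 CPM with 30 UMIs or more at the age of their higher level, and only those are counted below. Their log2 ratios of P60 over P15 had a median of -0.03 and ran from -0.66 to 0.65 between the 10th and 90th percentiles, and 75.2% of the genes lay within 1.5-fold. At least 2-fold higher at P60 were 131 genes, 3.82% of those past the minimum. At least 2-fold lower were 148, which is 4.32%, and together they make 8.15%. Every count of list members below stands against these shares of all genes. Both ends were short, with 30 genes at least 4-fold higher and 32 at least 4-fold lower. The 2-fold limit cut a dense region, since 67 genes lay between 2-fold and 2.2-fold and 137 between 1.8-fold and 2-fold. The split depended on the scaling: of the genes called, 47.0% were higher at P60 as reported, 33.3% after a trimmed mean of log ratios, 31.6% after a median of ratios and 68.6% with Malat1 left out of the totals. Of the 101 named genes past 2-fold, 25 lost the call, which also needs 50 CPM and 30 UMIs, in at least 1 of 14 other settings. Among them, Cav1, Igfbp7, Agrn, H2-D1, Wwtr1, P4ha1, Vegfa, Rps7, Rps24, Eef2 and Malat1 fell short of 2-fold in at least 1 setting and kept their direction. The same held for Slc1a5, Slc25a5 and Btg2. Col4a2 (2.09-fold), Nfib (2.08-fold), Ifit1 (2.12-fold) and Usp18 (2.15-fold), also described below, were not among the 101. Their folds lie close to the limit, and their range over the settings is not given.

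**Figure D1:**
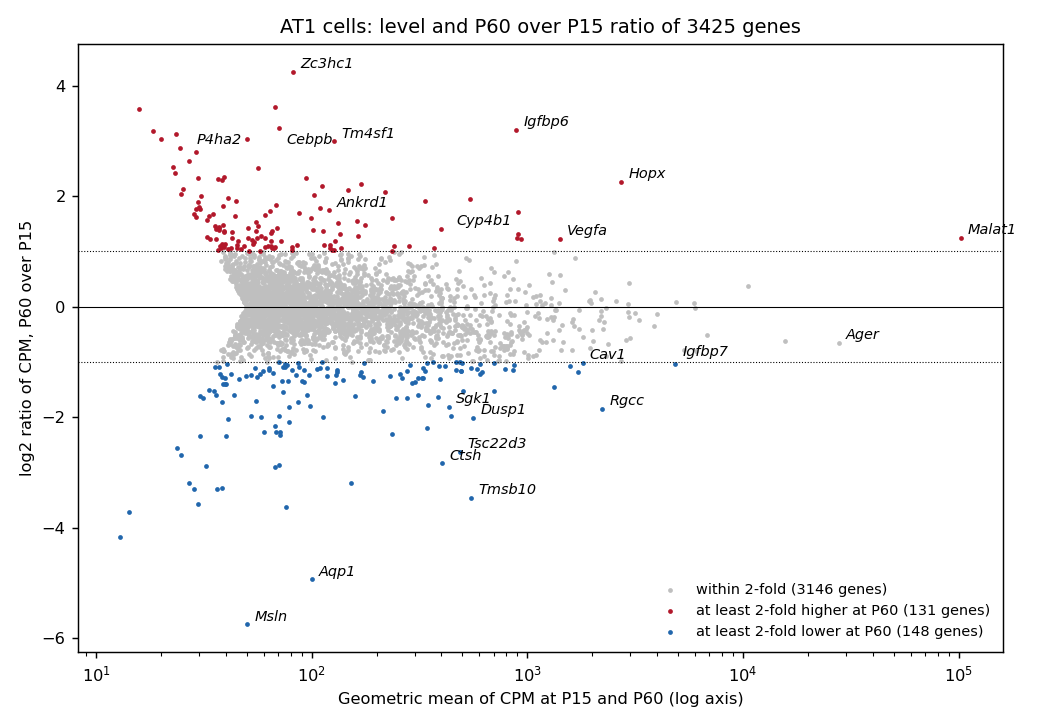
Each point is 1 of 3425 genes. The horizontal log axis is the geometric mean of its CPM at P15 and P60 and the vertical axis is the log2 ratio of P60 over P15, with dotted lines at 2-fold. The 131 genes at least 2-fold higher are red and the 148 at least 2-fold lower are blue. A gene needed 50 CPM in the higher library, so further left of 50 CPM only genes with ever larger ratios remain. The middle of the cloud is empty there because of this minimum.

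**Figure D2:**
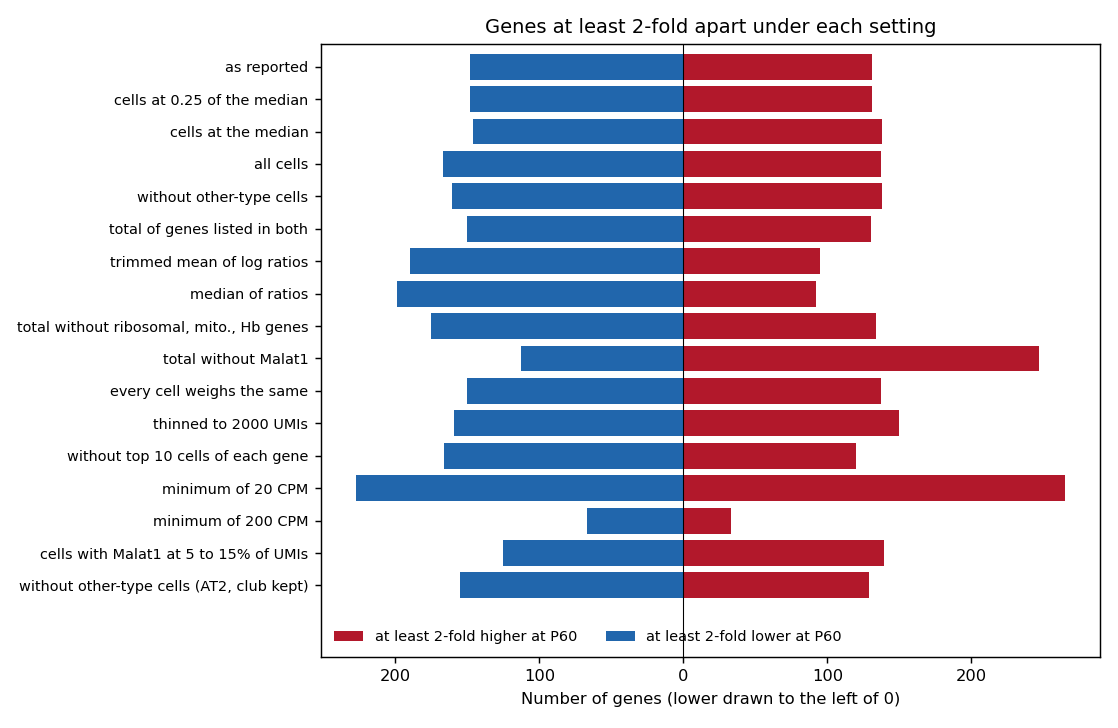
Bars give the number of genes at least 2-fold higher (right) and lower (left) at P60 under each way of choosing cells, totals and minimum, except the setting with no minimum, which is not drawn. Leaving Malat1 out of the totals gave 247 higher and 113 lower genes, and scaling by the median of ratios gave 92 higher and 199 lower.

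The genes with the largest ratios were named by a rule that took the 12 largest in each direction with a level of 100 CPM or more at either age. Among those higher at P60, Zc3hc1, which encodes a zinc finger protein of the nuclear envelope, stood at 18.7 CPM at P15 and 357 CPM at P60, a ratio of 19.1-fold (16.8 to 21.8). Cebpb, a bZIP transcription factor of stress and differentiation programmes, stood at 22.9 CPM at P15 and 216 CPM at P60, which is 9.44-fold higher (8.36 to 10.7). P4ha2, a catalytic subunit of collagen prolyl 4-hydroxylase, stood at 17.5 and 144 CPM (8.24-fold higher). On mm10, GENCODE places Zc3hc1 at chr6:30366380-30391028 on the minus strand, Cebpb at chr2:167688915-167690418 on the plus strand and P4ha2 at chr11:54100095-54131665 on the plus strand. All 3 were scarce at P15, and the P3 library held them at 16.97, 6.82 and 8.53 CPM. Tm4sf1, a four-pass membrane protein, stood at 45.2 CPM at P15 and 359 CPM at P60 (7.95-fold), with 8.23 CPM at P3 and 5.11 CPM in the AT2 library. Npw, the precursor of neuropeptide W, stood at 51.1 and 207 CPM, 4.06-fold higher, and the ubiquitin ligase gene Rnf121 at 59.02 and 203 CPM, 3.44-fold higher. Rnaset2b (23.7 and 135 CPM) and Eif3j1 (36.03 and 129 CPM) have near-identical copies, so reads may have been split between them: Rnaset2a stood at 128 and 124 CPM and Eif3j2 at 65.1 and 94.3 CPM. Lars2, a mitochondrial leucyl-tRNA synthetase gene (41.9 and 211 CPM), Wdr89 (71.1 and 308 CPM), Igfbp6 and the noncoding RNA AY036118, both described below, complete this end. The log2 ratio of Lars2 was 2.33 as reported and 1.301 between cells that held Malat1 at 5 to 15% of their UMIs, and that of Tm4sf1 was 2.99 and, with all cells of both libraries summed, 2.23.

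At the other end, Msln, which encodes mesothelin, stood at 369.8 CPM at P15 and 6.86 CPM at P60, 53.9-fold lower (40.5 to 73.5), and 10 cells held 61.7% of the UMIs left at P60. Mesothelin also marks the mesothelium around the lung, whose other 5 markers at P15 were Wt1, listed at 0, Upk3b at 1.15, Lrrn4 at 0.573, Upk1b at 0.430 and Rspo1 at 8.38 CPM. At P60 Upk3b stood at 1.75 CPM, and Rspo1 was higher than at P15, at 47.3 CPM. Aqp1, a water channel best known from capillary endothelium and red cells, stood at 553 CPM at P15 and 18.1 CPM at P60, 30.5-fold lower (25.6 to 36.8). Msln lies at chr17:25748613-25754378 on the minus strand and Aqp1 at chr6:55336432-55348555 on the plus strand. The defining endothelial markers were low and not lower at P60 (Pecam1 3.15 and 11.4 CPM, Cdh5 1.5 and 5.4 CPM). With all cells summed, the log2 ratio of Aqp1 was -3.25 instead of -4.93. Itm2a, a membrane protein gene, stood at 267 and 21.6 CPM (12.3-fold lower), and Chst8, a sulfotransferase gene, at 102 and 8.61 CPM (11.8-fold lower). Bex4 was 7.44-fold lower (184 and 24.7 CPM), and Krtap17-1, a keratin-associated protein gene, 9.67-fold lower (119.98 and 12.4 CPM). The remaining members of this end, Tmsb10, Dusp6, Clic1, Ctsh, Tsc22d3 and Id1, are described with their gene groups. Among the 12 lower genes, P3 was higher than P15 for Msln, Aqp1, Tmsb10, Bex4, Ctsh and Id1.

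**Figure D3:**
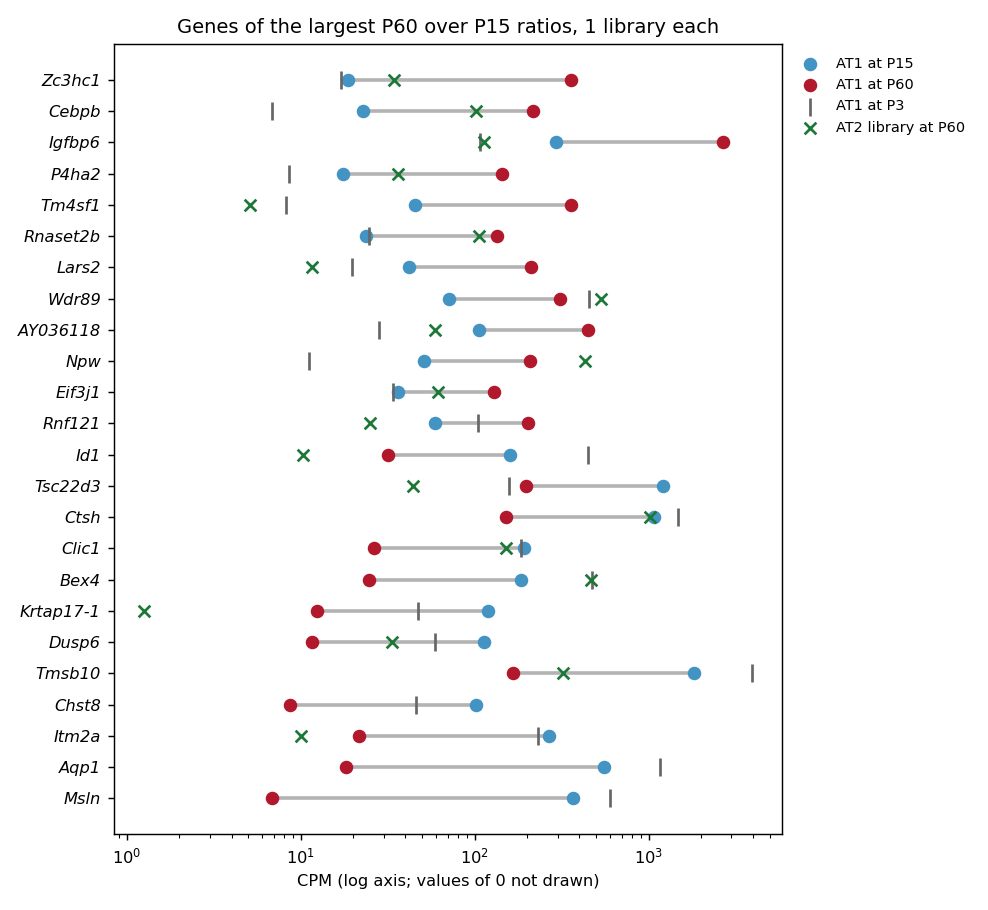
Each row is a gene of the largest ratios, with its CPM on a log axis in the AT1 library at P15 (blue), the AT1 library at P60 (red), the AT1 library at P3 (bar) and the AT2 library at P60 (cross); a level of 0 is not drawn. Msln at the bottom lies at 369.8 CPM at P15 and 6.86 CPM at P60 and Zc3hc1 at the top at 18.7 and 357 CPM, and each mark is 1 library.

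The median basement membrane gene was lower at P60. Of 28 basement membrane genes, 20 were listed in both files and 16 passed the minimum; 7 were at least 2-fold lower, none at least 2-fold higher, and the median log2 ratio was -0.89, against -0.03 over all 3425 genes. Their summed level was 17226 CPM at P15 and 10429 CPM at P60. Tinagl1, a matrix protein that binds laminin, stood at 736 CPM at P15 and 160.1 CPM at P60, 4.60-fold lower (4.32 to 4.90). The laminin subunit genes Lama5 (148 and 57.8 CPM, 2.56-fold) and Lamc1 (124 and 48.9 CPM, 2.54-fold) were lower, while Lamb3 (349 and 210.2 CPM) and Lama3 (319.9 and 202 CPM) were within 2-fold. The collagen IV genes split by pair. Col4a1 stood at 1029.6 and 524 CPM, 1.97-fold lower, and its head-to-head neighbour Col4a2 at 1262 and 603 CPM, 2.09-fold lower. Col4a5, on the X chromosome, was 2.59-fold lower (486 and 188 CPM). Col4a3, at 974 and 993 CPM, and its neighbour Col4a4, at 1072 and 1112 CPM, differed by 1.02-fold and 1.04-fold, with counting intervals of 0.99 to 1.05 and 1.01 to 1.07. Sparc, a calcium-binding matrix protein, stood at 7997 CPM at P15 and 4567 CPM at P60, 1.75-fold lower.

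Genes that modify collagen differed in both directions. Of 10 past the minimum, 2 were at least 2-fold higher and 2 at least 2-fold lower. The higher pair were the prolyl 4-hydroxylase subunits P4ha2 and P4ha1, the latter at 87.2 CPM at P15 and 177 CPM at P60 (2.02-fold). The lower pair were Serpinh1, the collagen chaperone HSP47, at 623 and 251 CPM (2.48-fold), and the cross-linking enzyme gene Lox at 59.3 and 24.7 CPM (2.40-fold). Of 12 genes of the interstitial matrix and its proteases past the minimum, 1 was at least 2-fold higher and 3 at least 2-fold lower, 8 were within 2-fold, and the median log2 ratio of -0.04 was close to the -0.03 of all genes. The lower members were Ctsh, described below, Fbln5 and Gpc3. Fbln5, an elastic fibre gene, stood at 922 CPM at P15 and 409 CPM at P60 (2.26-fold lower), while Gpc3, a glypican gene that restrains growth, stood at 182 and 76.2 CPM (2.39-fold lower). The metalloprotease inhibitor gene Timp3 lay on the other side of 1, with 2549.8 CPM at P15 and 3449 CPM at P60, 1.35-fold higher. The higher member Adamtsl4, which encodes a fibrillin-binding protein, was 3.05-fold higher (57.1 and 174 CPM). The integrin subunit gene Itgb5 was 3.14-fold higher (34.2 and 107 CPM), and the other 15 integrin and adhesion genes past the minimum stayed within 2-fold.

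The insulin-like growth factor (IGF) binding proteins differed in opposite directions. Igfbp6, which binds IGF-II by preference, stood at 292 CPM at P15 and 2686 CPM at P60, 9.19-fold higher (8.88 to 9.51). The gene lies at chr15:102144362-102149511 on the plus strand. Igfbp7, a binding protein of low IGF affinity, stood at 6941 CPM at P15 and 3397 CPM at P60, 2.04-fold lower (2.01 to 2.07). Igfbp2 stood at 1868 and 1993 CPM, a ratio of 1.07-fold, with UMIs in 87.2% of kept cells at P15 and 95.1% at P60. The summed level of the 16 listed IGF genes was 9683 CPM at P15 and 8704 CPM at P60, close to each other while the single members lay apart. Cells thinned at random to 2000 UMIs, 2468 at P15 and 1103 at P60, showed the same in single cells: an Igfbp6 UMI was found in 39.7% of cells at P15 and 97.6% at P60 (59.1 and 98.2% before thinning), against 18.5% of cells in the thinned AT2 library. The receptor gene Igf1r was within 2-fold (148 and 175 CPM), as was the scavenging receptor gene Igf2r (46.3 and 87.6 CPM).

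Signals to vessels were level or higher. Of 14 vessel and guidance genes past the minimum, 2 were at least 2-fold higher and none at least 2-fold lower, with a median log2 ratio of 0.21, and 12 of the 14 lay above the median of all genes. Vegfa, the endothelial growth factor that AT1 cells supply to alveolar capillaries, stood at 927 CPM at P15 and 2172 CPM at P60, 2.34-fold higher (2.29 to 2.40), with 598 CPM at P3. Ntn4, a netrin of basement membranes, stood at 25.8 and 56.9 CPM (2.21-fold higher). The semaphorin gene Sema3e (384 and 477 CPM) and the neurotrophic factor gene Ndnf (698 and 716 CPM) were within 1.5-fold. Among ligands for other neighbours, Pdgfa, which acts on myofibroblast precursors, stood at 771 and 817 CPM, a ratio of 1.06-fold, and Wnt7a at 68.98 and 97.2 CPM. Of the 15 morphogen genes past the minimum, only Fgfbp1, a carrier of fibroblast growth factors, passed 2-fold (149 and 63.1 CPM, lower).

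Genes that answer to glucocorticoid hormone formed the list with the lowest median among lists with 5 or more members past the minimum. Of 24 such genes, 20 were listed in both files and 14 passed the minimum; 10 were at least 2-fold lower at P60 and none at least 2-fold higher, with a median log2 ratio of -1.29. Tsc22d3, which encodes the glucocorticoid-induced leucine zipper, stood at 1213 CPM at P15 and 196 CPM at P60, 6.18-fold lower (5.84 to 6.53). Sgk1, a kinase that regulates sodium channels, stood at 808 and 230.3 CPM (3.51-fold lower). Dusp1, a phosphatase of stress kinases, stood at 1131 and 279.6 CPM (4.05-fold lower). Klf15 (130.01 and 54.9 CPM), Per1 (69.6 and 21.02 CPM) and Glul (62.7 and 20.7 CPM) lay in the same direction. The receptor gene itself, Nr3c1, was on the other side, at 105 CPM at P15 and 167 CPM at P60 (1.59-fold higher). Fkbp5, another gene of this list, had 21.8 CPM at P15 and is not listed in the P60 file. The P15 level was also above the P3 level for Tsc22d3 (157 CPM at P3), Sgk1 (72.2 CPM), Klf15 (18.04 CPM) and Per1 (28.2 CPM), whereas Cdkn1a (148 CPM at P3, 131 CPM at P15 and 27.3 CPM at P60) and Txnip (471, 415 and 184 CPM) were not highest at P15. The 20 genes listed in both files summed to 6350 CPM at P15 and 2798 CPM at P60. The P3 sum of 2986 CPM was taken over all members of the list in the P3 file, so it may cover more genes.

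Immediate early genes, which cells switch on within minutes of a stimulus, tissue dissociation among them, were lower too. Of 19 past the minimum, 11 were at least 2-fold lower and none at least 2-fold higher, with a median log2 ratio of -1.09. The lists share members, and Klf4, described below, counts among both these genes and the lung transcription factors. Fos stood at 525 CPM at P15 and 107 CPM at P60 (4.93-fold lower), Fosb at 104 and 26.4 CPM (3.93-fold lower), Jun at 411 and 168 CPM (2.45-fold lower) and Junb at 195 and 88.01 CPM (2.22-fold lower). The 4 AP-1 genes were still higher at P3, with 2372, 389.5, 1605 and 732 CPM. Members differed: Ier3, at 943 CPM at P15 and 1883 CPM at P60, was higher by just under 2-fold, Gadd45b was 1.46-fold higher (286 and 419 CPM), and Jund was nearly level at 1028 and 964 CPM. Of the 7 clock genes past the minimum, 1 was at least 2-fold higher and 1 lower: Nr1d1, a repressor of the clock, stood at 9.46 CPM at P15 and 54.9 CPM at P60 (5.80-fold higher), and Per1 was lower as given above. Dbp, a clock output gene of large daily swing, was below the minimum at both ages (4.58 and 3.65 CPM).

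Interferon-stimulated genes were lower at P60 as a group. Of 37 such genes, 32 were listed in both files and 10 passed the minimum; 5 were at least 2-fold lower, none at least 2-fold higher, and all 10 lay below the median of all genes, with a median log2 ratio of -0.93. Ifit3, which encodes an antiviral protein, stood at 542 CPM at P15 and 178 CPM at P60, 3.04-fold lower (2.87 to 3.24). Isg15, a ubiquitin-like protein, stood at 141 and 35.8 CPM (3.93-fold lower), and Rtp4 at 57.9 and 9.78 CPM (5.92-fold lower). Usp18, the enzyme that removes ISG15, was 2.15-fold lower (92.8 and 43.2 CPM) and Ifit1 2.12-fold lower (109 and 51.7 CPM). Ifit3b, a close copy of Ifit3, was within 1.5-fold (112 and 90.8 CPM), and reads may have been split between the copies. The P3 library held Ifit3 at 49.7, Isg15 at 9.42 and Ifit1 at 5.16 CPM. The 32 genes listed in both files summed to 2603 CPM at P15 and 1418 CPM at P60. The P3 sum of 620 CPM was taken over all members of the list in the P3 file, so it may cover more genes. Of the class I antigen presentation genes, 2 of 9 past the minimum were at least 2-fold lower, H2-D1 (1268 and 576 CPM) and H2-Q4 (53.5 and 17.4 CPM), while B2m, their shared light chain, stood at 1369.6 and 1308 CPM and H2-K1 at 238 and 288 CPM. Class I genes are near-identical to one another, so reads may have been split between them.

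The promoters of the interferon-stimulated genes that were at least 2-fold lower are shown because these genes were lower together, and they were searched for the letters of the element that the interferon-activated factor ISGF3 is known to bind. RefSeq's promoter table (GRCm38.p6) holds 3 of the 5. The 250 bases before each start are given 5′ to 3′ on the gene's own strand, with matches in capitals. A match is GAAA, any 2 bases and GAAA again, on either strand, so that a match on the opposite strand reads as TTTC, any 2 bases and TTTC, and overlapping matches run together. The window of Ifit1 is chr19:34640639-34640888 on the plus strand, that of Ifit3 is chr19:34583279-34583528 on the plus strand, and that of Isg15 is chr4:156200819-156201068 on the minus strand.
Ifit1: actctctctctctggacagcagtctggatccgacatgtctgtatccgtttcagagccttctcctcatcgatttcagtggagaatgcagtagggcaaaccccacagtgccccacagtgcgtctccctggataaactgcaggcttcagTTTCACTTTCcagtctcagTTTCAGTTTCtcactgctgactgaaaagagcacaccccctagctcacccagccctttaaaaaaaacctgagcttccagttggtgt
Ifit3: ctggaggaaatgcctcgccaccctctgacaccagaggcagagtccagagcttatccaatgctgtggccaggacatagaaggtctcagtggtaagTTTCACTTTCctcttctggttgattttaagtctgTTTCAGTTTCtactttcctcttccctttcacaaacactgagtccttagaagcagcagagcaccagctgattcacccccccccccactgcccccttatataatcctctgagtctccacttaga
Isg15: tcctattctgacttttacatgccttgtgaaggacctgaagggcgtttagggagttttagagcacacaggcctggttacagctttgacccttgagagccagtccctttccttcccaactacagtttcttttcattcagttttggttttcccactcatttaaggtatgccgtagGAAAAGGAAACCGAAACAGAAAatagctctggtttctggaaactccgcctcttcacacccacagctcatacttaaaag
Ifit1 and Ifit3 held 2 matches each and Isg15 held 3. The match nearest to the start began 85 bases before it in Ifit1, 122 bases in Ifit3 and 66 bases in Isg15. Over all 27025 genes of the table, 936 (3.46%) held the letters in a window of the same length, and among genes past the expression minimum 92 of 2635 with an entry did (3.49%). Of the 10 interferon-stimulated genes past the minimum, 7 had an entry and 5 of these held a match, which includes genes within 2-fold. In the whole interferon list, whatever the ratio, 12 of 26 genes with an entry held a match (46.2%). Among all genes at least 2-fold lower it was 8 of 109 with an entry (7.34%), and among those at least 2-fold higher 4 of 94 (4.26%). A match is a description of the letters and not a shown binding site.

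Genes of drug and aldehyde metabolism were the list with the most members higher at P60. Of 40 such genes, 24 were listed in both files and 13 passed the minimum; 6 were at least 2-fold higher, none at least 2-fold lower, and the median log2 ratio was 0.95. Cyp4b1, a cytochrome P450 of the lung, stood at 573 CPM at P15 and 1419.7 CPM at P60, 2.48-fold higher (2.41 to 2.55), with 24.9 CPM at P3 and 6.17 CPM in the AT2 library. Cyp2b10, a drug-inducible P450, stood at 1157 and 1725 CPM (1.49-fold higher), after 15.4 CPM at P3. The other higher members were scarcer: Aldh3a1 (9.03 and 66.3 CPM), Ephx1 (10.1 and 54.00 CPM), Ces1d (17.4 and 88.6 CPM), Aldh1a1 (17.3 and 85.1 CPM) and Fmo5 (21.9 and 51.5 CPM). Several of these enzymes are also made by club cells, whose marker Scgb1a1 was 3.87-fold higher at P60 in the kept cells while the 5 club markers listed at both ages summed to 297 and 1143 CPM. Cyp2f2, a P450 that defines club cells, stood at 6.52 and 9.63 CPM. The club markers Scgb3a1 (4.94 and 46.0 CPM) and Scgb3a2 (4.58 and 15.8 CPM) were higher at P60, and Bpifa1 (4.87 and 2.77 CPM) was lower. At least 3 club markers were found in 8 of the 2670 kept cells at P15 and 61 of the 1220 at P60. With all cells of both libraries summed, the log2 ratio of Aldh1a1 was 0.62 instead of 2.30, that of Ces1d 0.97 instead of 2.35 and that of the glutathione transferase gene Gstm1 0.28 instead of 3.04, and that of Scgb1a1 was -2.14. The AT2 library held Ces1d at 312 CPM, above its AT1 level at both ages. It also held Gstm1 at 99.6 CPM, against 6.95 CPM at P15 and 57.2 CPM at P60. The AT2 levels of Aldh3a1 (4.34 CPM), Ephx1 (18.4 CPM), Aldh1a1 (4.53 CPM) and Fmo5 (9.44 CPM) were below their P60 AT1 levels. The part of club or AT2 cell RNA in these genes was not tested.

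Genes of the actin cytoskeleton and the membrane differed member by member. Tmsb10, which encodes a thymosin that binds actin monomers, stood at 1819.6 CPM at P15 and 165 CPM at P60, 11.02-fold lower (10.4 to 11.7), after 3936 CPM at P3. The gene lies at chr6:72957347-72958748 on the minus strand. Its relative Tmsb4x stood at 19497 and 12621 CPM, 1.54-fold lower. Of 32 actin cytoskeleton genes past the minimum, Tmsb10 alone passed 2-fold, and the median log2 ratio of the list was -0.43. The 2 cytoplasmic actins lay on either side, Actb at 9345 CPM at P15 and 12037 CPM at P60 (1.29-fold higher) and Actg1 at 2116 and 1231 CPM (1.72-fold lower). Of 15 genes of calcium-binding S100 proteins and annexins past the minimum, 3 were at least 2-fold lower, all of them S100 genes. S100a11 stood at 2189 and 801 CPM (2.73-fold), S100a14 at 126 and 43.2 CPM (2.92-fold) and S100a10 at 469 and 181 CPM (2.59-fold). Anxa2, the partner of S100a10, was 1.71-fold lower (1884 and 1099.8 CPM), and Anxa5 stood at 1105 and 1185 CPM. Caveolae, the flask-shaped pits that are dense in AT1 membranes, showed a split: Cav1 stood at 2569 CPM at P15 and 1269 CPM at P60 (2.02-fold lower), while Cav2, which forms oligomers with it, was 1.25-fold higher (812 and 1018 CPM).

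Growth and differentiation signals gave mixed lists. Dusp6, a phosphatase that switches off ERK, stood at 114 CPM at P15 and 11.5 CPM at P60, 9.86-fold lower (7.86 to 12.5), and Phlda1 was 3.53-fold lower (148 and 41.9 CPM), whereas the ERK feedback genes Spry2 (93.6 and 71.2 CPM) and Spry1 (112 and 132 CPM) were within 1.5-fold. Of 9 genes of the response to TGF-beta and bone morphogenetic protein (BMP) past the minimum, 2 were at least 2-fold lower and none at least 2-fold higher. The median log2 ratio was 0.29. Id1, a target of BMP signals, stood at 159 and 31.8 CPM (4.99-fold lower), Id2 at 109 and 40.4 CPM (2.71-fold lower) and Id3 at 362 and 212 CPM (1.70-fold lower). Id4, below the minimum, was 1.93-fold higher (18.3 and 35.2 CPM). The receptor genes Bmpr2 (69.2 and 116 CPM) and Tgfbr2 (122 and 222 CPM) were also higher, each within 2-fold. The list of YAP and TAZ, the stretch-sensitive co-activators on which AT1 identity depends, and their targets had 16 members past the minimum. Of these, 1 was at least 2-fold higher and 1 at least 2-fold lower, against 3.82 and 4.32% of all 3425 genes. Counts this small do not set the list apart from all genes. The higher one was Ankrd1, a classical YAP target, at 65.8 CPM at P15 and 220.2 CPM at P60 (3.35-fold), and the lower one was Wwtr1, which encodes TAZ itself, at 128 and 59.8 CPM (2.14-fold). The other classical targets Ctgf (652 and 396 CPM) and Cyr61 (988 and 715 CPM) were below 2-fold in the opposite direction to Ankrd1, and the pathway's regulators Wwc1 (266 and 508 CPM), Ptpn14 (69.8 and 135 CPM) and Amotl2 (212 and 366 CPM) were below 2-fold on the higher side.

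Of 19 lung epithelial transcription factor genes past the minimum, 2 were at least 2-fold higher and 4 at least 2-fold lower, with a median log2 ratio of 0.00. The higher ones were Cebpb and Nfib, a factor of perinatal lung maturation, the latter at 84.5 CPM at P15 and 176 CPM at P60 (2.08-fold). Of the 4 lower ones, 3 were Krüppel-like factors: Klf4 (62.7 and 9.78 CPM), Klf2 (279 and 91.4 CPM) and Klf5 (116 and 45.8 CPM). The fourth was the homeobox gene Irx1 (220.4 and 88.01 CPM). Klf6 (521 and 409 CPM) was within 1.5-fold. Nkx2-1, the lineage factor of the whole lung epithelium, stood at 538 and 425 CPM, 1.26-fold lower, and Gata6 at 147 and 187 CPM, 1.28-fold higher.

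Most AT1 genes outside the choice of cells differed by less than 2-fold. Of 34 past the minimum, 29 were within 2-fold, 2 were at least 2-fold higher (Vegfa and Cyp4b1) and 3 at least 2-fold lower, Agrn and Cav1 among them, with a median log2 ratio of 0.00. The tight junction gene Cldn18 stood at 2881 CPM at P15 and 2969 CPM at P60 and the keratin gene Krt7 at 2503 and 2068 CPM. Prdx6, an antioxidant enzyme abundant in AT1 cells, was 1.43-fold lower (8124 and 5692 CPM), and Rgcc, a regulator of the cell cycle and of complement responses, was 3.59-fold lower (4228 and 1178 CPM). The 8 genes that chose the cells are given as a description only: Ager stood at 35024 and 22202 CPM, Hopx at 1244 and 5939 CPM, Pdpn at 1275 and 1301 CPM, and Aqp5 at 3590.3 and 3048 CPM. The same cells were sorted on a Hopx reporter and on surface Pdpn.

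Ion and water transport genes past the minimum numbered 15, of which 4 were at least 2-fold lower and none at least 2-fold higher. Besides Aqp1, these were Clic1, which encodes a chloride intracellular channel protein (191 and 26.3 CPM), Atp1b1, the beta subunit of the sodium pump (885 and 223 CPM), and Fxyd3, a modulator of that pump (207 and 79.7 CPM). The 3 subunits of the epithelial sodium channel stayed within 1.5-fold, Scnn1a at 747 and 615 CPM, Scnn1b at 337 and 433 CPM and Scnn1g at 769.9 and 567 CPM. Ctsh, a lysosomal protease that AT2 cells use to process surfactant protein B, stood at 1075 CPM at P15 and 150.5 CPM at P60, 7.14-fold lower (6.70 to 7.61). The surfactant protein D gene Sftpd was 9.88-fold lower (89.4 and 9.05 CPM, a log2 ratio of -3.30, against -1.15 with all cells summed), but Sftpc (260.2 and 219 CPM) and Lyz2 (25.9 and 48.7 CPM), which AT2 cells held at 134399 and 27198 CPM, were within 2-fold. Wfdc2, a secreted protease inhibitor, was 3.43-fold lower (642 and 187 CPM).

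The gene lists of general cell functions differed by less than 2-fold for most members. Of 92 ribosomal protein genes past the minimum, 84 were within 2-fold, with a median log2 ratio of -0.56. Rps19 stood at 3822 CPM at P15 and 1928 CPM at P60, and Rps7 (735 and 328 CPM) and Rps24 (735 and 328 CPM) were among the 5 past 2-fold. The 3 that were at least 2-fold higher are retrotransposed copies whose parents were lower: Rps27rt stood at 173 and 650.1 CPM against 2004 and 1513 CPM for Rps27, Rpl36-ps3 at 35.2 and 117 CPM against 1051 and 678 CPM for Rpl36, and Rps26-ps1 at 31.0 and 83.2 CPM against 515 and 374 CPM for Rps26. Reads of copy and parent are close to identical, so these 3 are uncertain. Of 32 translation factor genes, whose median log2 ratio was -0.46, 3 were at least 2-fold lower, with Eef2 at 863 and 418 CPM and Eif4ebp1, a repressor of cap-dependent translation, at 76.00 and 25.1 CPM. None of 79 nuclear respiratory chain genes and none of 31 proteasome genes were 2-fold apart, with median log2 ratios of -0.20 and 0.07. Of 25 lysosomal and proton pump genes, whose median was -0.45, 3 were at least 2-fold lower. Nuclear RNAs and splicing regulators had 5 of 30 at least 2-fold higher, Malat1 itself at 66522 CPM at P15 and 157762 CPM at P60 among them. Another of the 5, Gm26917 (78.8 and 365 CPM), is annotated next to AY036118 (106 and 448 CPM) and Gm42418 (498 and 1634 CPM). AY036118 (chr17:39847113-39848035) and Gm42418 (chr17:39846958-39848788) lie wholly within an annotated ribosomal RNA gene in GENCODE on mm10, so the levels of these overlapping annotations are uncertain. Gm26917 (chr17:39843013-39846341) lies beside that gene without overlapping it, and its level is taken with the same caution.

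**Figure D4:**
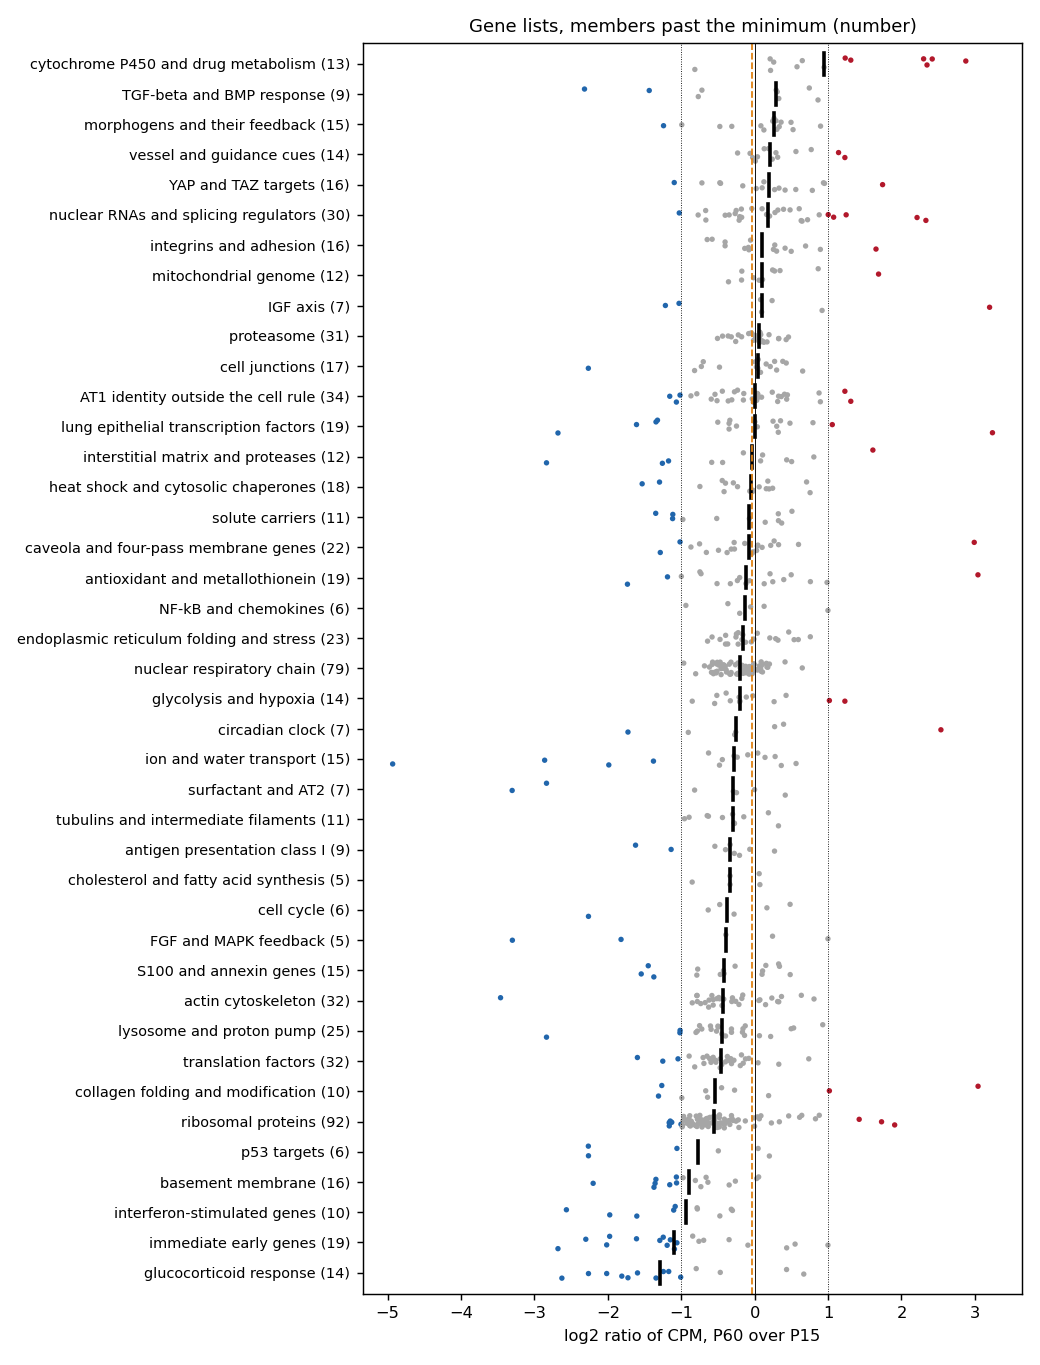
Each row is a gene list with the number of members past the minimum in brackets, each point a member's log2 ratio of P60 over P15, red and blue past 2-fold. The black bar is the list's median and the dashed line the median of all 3425 genes (-0.03). Glucocorticoid response (-1.29), immediate early (-1.09) and interferon-stimulated genes (-0.93) lie at the bottom and drug metabolism (0.95) at the top.

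Over single cells, some abundant genes differed in most cells and others did not. In cells thinned to 2000 UMIs, leaving out 202 cells at P15 and 117 at P60 that were shallower, the median Tmsb10 count was 3 at P15 and 0 at P60, and 98.7% of P60 cells lay below the P15 median. Igfbp7 had medians of 13 and 6 UMIs, with 92.9% of P60 cells below the P15 median, and Cav1 medians of 5 and 2, with 84.6% below. Sparc, within 2-fold by CPM, had medians of 15 and 9, with 91.2% below. In the other direction, Igfbp6 had medians of 0 and 5, with 97.6% of P60 cells above the P15 median, Vegfa medians of 2 and 4, with 76.8% above, and Cyp4b1 medians of 1 and 2, with 69.2% above. Eef2, lower by CPM, had a median of 1 at both ages, with 45.9% of P60 cells below it. Fos had a median of 0 at both ages and a 90th percentile of 3 UMIs at P15 and 0 at P60. The cells of a library share 1 preparation and are not replicates.

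**Figure D5:**
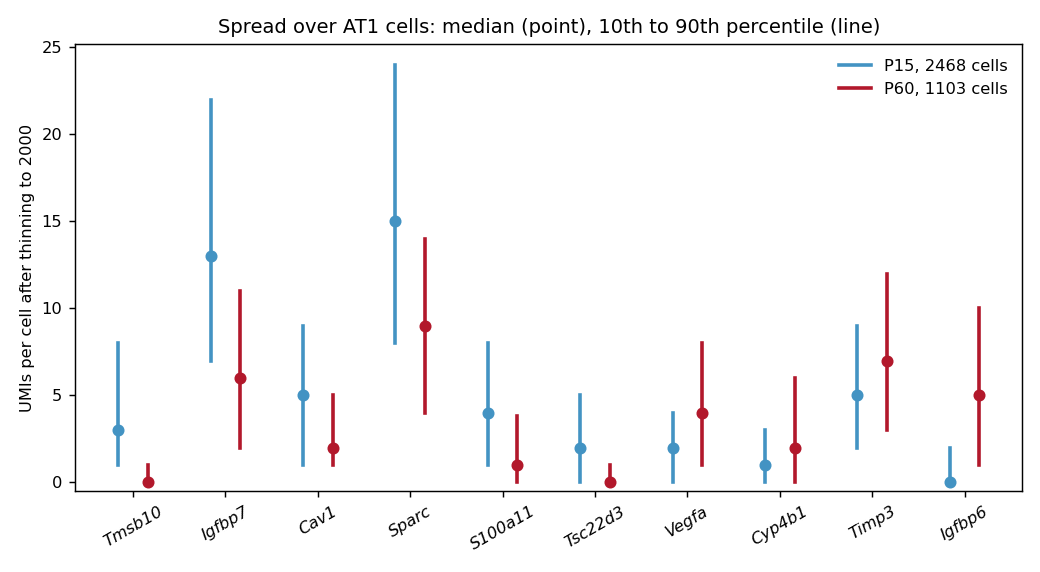
UMIs per cell after each cell was thinned to 2000 UMIs, for 10 genes in 2468 cells at P15 (blue) and 1103 cells at P60 (red); points are medians and lines run from the 10th to the 90th percentile. The medians at P15 and P60 are 13 and 6 for Igfbp7, 3 and 0 for Tmsb10 and 0 and 5 for Igfbp6.

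Some genes are listed at 1 age only, 1531 in the P15 file and 241 in the P60 file, and a gene absent from a file was not taken as 0. The genes listed at P15 only summed to 1689 CPM there, led by the class I gene H2-Q1 at 286 CPM, with UMIs in 1669 of the 2670 cells, and by Meg3, a maternally expressed imprinted noncoding RNA, at 99.2 CPM. Meg3 stood at 978 CPM in the P3 library. Class I genes that both files list differed in both directions: H2-Q2 stood at 55.7 CPM at P15 and 17.7 CPM at P60 and H2-Q6, below the minimum, at 14.04 and 1.90 CPM, while H2-T22, also below it, stood at 19.4 and 29.2 CPM and H2-K1 was higher as given above. The genes listed at P60 only summed to 667 CPM, led by Psca, a membrane-anchored surface antigen, at 152 CPM with UMIs in 395 of 1220 cells. The neutrophil gene Retnlg (9.92 CPM) and the platelet gene Ppbp (9.05 CPM) are also listed at P60 only.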

How the data were processed

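Single-cell RNA of sorted mouse AT1 cells was measured with 10x 3' chemistry, 1 library each at P15 and P60. The authors deposited natural log values per gene and cell, scaled to 10000 per cell with 1 added, as the values show. Cell Ranger 1.3.1, Seurat 2.0.0 and the builds mm10 and hg19 are named per the submitters' processing notes, with no stated use for hg19. Unlogged with expm1 and divided by each cell's smallest value above 0, the values gave whole UMIs for 100% of values within 0.05. UMIs of cells kept by the 8-gene rule were summed and given as CPM of all listed genes. Depth was 13960421 UMIs at P15 and 6851433 at P60. Intervals on ratios are exact and conditional on the summed counts, at 95%, and cover counting error only.

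With 1 library a side no test of age was run. A gene was called by size, at 2-fold with 50 CPM and 30 UMIs in the higher library. No doublet caller was run. Cells with 3 or more markers of another type were left out in an alternative, as were other totals, weights, cell limits and minimums, 15 settings in all, and 2 more were added after seeing the data. Gene names follow a rule: the 12 largest ratios in each direction at 100 CPM whose direction held both over all cells together and under a trimmed mean of log ratios, without ribosomal protein, mitochondrial, haemoglobin and provisional symbols and without the genes of the cell rule, then up to 5 members at 20 CPM and the most abundant member of each of 44 gene lists, the 8 rule genes, the 6 leading genes listed in 1 file only per file, and library and cell type markers. Some members are not reported here. Other list members and copies named in the text were chosen after their values were seen. The members, lists and markers were chosen with earlier results of these data known. On simulated counts with known folds, calls were tested only under the trimmed mean of log ratios, not under the total used for the reported calls. The coverage of the intervals, the recovery of UMIs and the thinning were also tested on simulated data. Python 3.11.15, numpy 2.4.6, scipy 1.17.1 and pandas 2.3.3 were used. Coordinates follow GENCODE on mm10, and promoters come from RefSeq on GRCm38.p6.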

Additional observations from a re-analysis of the deposited data

How the results depend on the processing

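The number of genes at least 2-fold higher at P60 was 131 as reported and 247 with Malat1 left out of the totals, and it was 265, 33 and 1264 with a minimum of 20 CPM, a minimum of 200 CPM and no minimum. The number lower was 148 as reported and 227, 67 and 510 under those 3 minimums. The other alternatives for the cells, totals and weights stayed within 1.5 times of both counts, but the split moved: a trimmed mean of log ratios gave 95 higher and 190 lower and shifted the median of all genes by -0.13, a median of ratios gave 92 and 199 with a shift of -0.15, and leaving out Malat1 gave 247 and 113 with a shift of 0.18. Cells with Malat1 at 5 to 15% of their UMIs, 1419 at P15 and 432 at P60, gave 139 higher and 125 lower. Leaving out cells with 3 or more markers of another type removed many at P60, keeping 85.7% of cells at P15 and 59.3% at P60, and gave 138 and 161; sparing AT2 and club markers kept 95.4 and 90.2% and gave 129 and 155.

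Of 252 named genes, 101 were called, 76 kept their call in all 14 alternatives that left the minimum as it was, and 25 lost it in at least 1. Scgb1a1 turned from a log2 ratio of 1.95 to -2.14 with all cells summed. The innate defence list, with 4 members past the minimum, turned from a median of -0.68 to 0.085 with cells at the median of the rule, 0.13 without cells of other types and 0.063 without the 10 cells richest in each gene. The cause was not tested. The medians of the glucocorticoid (-1.42 to -1.15), immediate early (-1.27 to -0.94), interferon (-1.06 to -0.75), basement membrane (-1.02 to -0.74) and drug metabolism lists (0.63 to 1.14) kept their sign in these alternatives, while those of the AT1 identity, IGF, lung transcription factor, nuclear RNA, proteasome and respiratory chain lists crossed 0. No paired analysis was possible because each age has 1 library and the labels give no replicate numbers. Depth limits genes under 50 CPM, and no alternative replaces a second library.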

Other observations

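Other genes past 2-fold belong to lists not described above. Lists share members and are not separate observations, and Cdkn1a, a p53 target, was already given with the glucocorticoid genes. The constitutive chaperone gene Hspa8 stood at 1187 CPM at P15 and 410.1 CPM at P60, 2.89-fold lower (2.78 to 3.01), and its co-chaperone gene Dnajb1 at 62.03 and 25.3 CPM, while Hsp90ab1 was 1.63-fold higher (529 and 863 CPM); 2 of 18 chaperone genes past the minimum were at least 2-fold lower. Of 11 solute carrier genes, 3 were at least 2-fold lower, the glutamine transporters Slc38a2 (144 and 56.5 CPM) and Slc1a5 (161 and 74.00 CPM) and the mitochondrial ADP/ATP carrier Slc25a5 (485 and 224 CPM). The antioxidant list had Selenbp1, a selenium-binding protein, at 2585 CPM at P15 and 1135 CPM at P60 (2.28-fold lower), and Sod1 at 185 and 366 CPM (1.98-fold higher). Of 6 targets of p53 past the minimum, 3 were at least 2-fold lower: Perp, a desmosome gene (157 and 32.5 CPM), the cell cycle inhibitor gene Cdkn1a (131 and 27.3 CPM) and Btg2 (412 and 198 CPM).

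Several genes outside every list, chosen after their values were seen, also lay past 2-fold. Cped1 stood at 245 CPM at P15 and 650.2 CPM at P60 (2.66-fold higher), the folate enzyme gene Mthfd1 at 614 and 1432 CPM (2.33-fold higher) and the junction scaffold gene Magi3 at 95.1 and 278 CPM (2.93-fold higher). Poc1a, a centriole gene, was 3.05-fold higher (135 and 411 CPM). The protein C receptor gene Procr stood at 0.256 CPM at P3, 6.09 CPM at P15 and 55.5 CPM at P60, and the cilium gene Cys1 at 0.128, 4.58 and 54.9 CPM. On the lower side were the calcium sensor gene Hpcal1 (436 and 138 CPM, 3.16-fold) and the aldo-keto reductase gene Akr1c14 (411 and 111 CPM, 3.71-fold).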
